A study of Homo sapiens with 2 samples.

Results

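Prostaglandin synthesis and receptor genes were followed in human mesothelioma cells in which CD26 had been lowered or raised. The 10 genes, chosen by symbol, were PLA2G4A, PTGS1, PTGS2, PTGES, PTGDS, PTGIS, TBXAS1, PTGER2, PTGER4 and HPGD, out of 12445 genes named on the array. A probe carried the symbol of 9 of them, and PLA2G4A had none. Values existed for 6 of them in the comparison of CD26-depleted cells and for 3 in that of CD26-transfected cells. PTGS2, PTGER4 and HPGD each had 1 probe with no value on either array. The choice of genes drew on earlier results of these data, among them the low value of PTGES in CD26-transfected cells, so the values are described here without a test.

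The depletion array compared CD26-depleted ACC-MESO1 cells with control cells of that line, and the transfection array compared MSTO-211H cells carrying CD26 from a pLNCX2 vector with their own control. Both are established lines from human mesothelioma, grown in medium with fetal calf serum. CD26, the product of DPP4, is a cell surface peptidase. The labels name the depleting agent once as shRNA and once as siRNA, and give neither the treatment of the control cells nor whether the transfected cells were 1 clone. Each comparison was a single 2-colour array with control RNA in Cy5 and manipulated RNA in Cy3, without a dye swap, and a value is the log2 ratio, manipulated over control. With 1 array a comparison there is no p-value and no spread between samples. The ratios hold no expression level, so the presence of cell type markers could not be checked, and less RNA per cell cannot be told apart from fewer cells that express a gene.

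Prostaglandins are lipid mediators made from arachidonate, which the cytosolic phospholipase PLA2G4A releases from membranes. The cyclooxygenases PTGS1, present in many tissues, and PTGS2, induced by cytokines and growth factors, turn arachidonate into the common precursor PGH2. Terminal synthases then make PGE2 (PTGES), PGD2 (PTGDS), prostacyclin (PTGIS) or thromboxane (TBXAS1), PGE2 signals through receptors that include EP2 (PTGER2) and EP4 (PTGER4), and HPGD inactivates prostaglandins. PTGES is known to be induced together with PTGS2 in inflammation and in many tumours.

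The genes farthest from 0 were PTGES on the transfection array and PTGER2 on the depletion array, and the 250 bases before the start of each are shown for that reason, from RefSeq on GRCh38.p14 and in the direction of the gene. The PTGES stretch is chr9:129753043-129753292 on the minus strand, and the PTGER2 stretch is chr14:52314062-52314311 on the plus strand. Capitals mark matches, on either strand, to the GC box (GGGCGG) and to a form of the site of the transcription factor EGR1 (GCGGGGGCG). This form overlaps a GC box in PTGER2, and other forms of the site were not searched. The TATA box (TATAAA) was searched as well, on both strands.
PTGES: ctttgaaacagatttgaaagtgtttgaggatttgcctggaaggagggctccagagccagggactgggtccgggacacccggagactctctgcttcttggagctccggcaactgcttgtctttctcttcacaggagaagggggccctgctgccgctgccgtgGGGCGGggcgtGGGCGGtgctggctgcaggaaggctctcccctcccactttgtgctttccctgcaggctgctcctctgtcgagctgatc
PTGER2: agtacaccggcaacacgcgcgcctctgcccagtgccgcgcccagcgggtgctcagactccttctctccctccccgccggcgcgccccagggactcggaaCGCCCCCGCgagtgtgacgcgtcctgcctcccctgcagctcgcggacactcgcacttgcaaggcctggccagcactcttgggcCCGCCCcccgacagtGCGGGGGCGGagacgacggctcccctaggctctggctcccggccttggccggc

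The PTGES stretch held 2 GC boxes, at bases 89 to 84 and 78 to 73 before the start, and no match to the EGR1 or TATA letters searched. The letters gcgtGGGCG, another form of the EGR1 site that was not searched, overlap the GC box at 78 to 73. The search therefore does not show that PTGES lacks an EGR1 site. How PTGES and PTGER2 compare in matches depends on the form searched. In the mouse, EGR1 is known to act on Ptges through GC boxes of this proximal region. The PTGER2 stretch held 2 GC boxes, 2 matches to the EGR1 letters and no TATA box. Among 35116 RefSeq stretches of the same length, 42.6% held a GC box and 24.3% at least 2, while 10.7% held a TATA box. The EGR1 letters, in the form searched alone, were in 4.72%, and 0.51% held them at least 2 times. G and C made up 74% of the PTGER2 stretch and 61.2% of the PTGES stretch, beside a median of 58%, and the GC box and EGR1 letters are themselves all G and C. These matches are letters in a window and do not show binding.

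DPP4, read as the check of the labels, was at -3.92 after depletion and at 5.51 after transfection, each the most extreme value among named genes of its array. Of 10347 genes, 342 were higher by 2-fold or more after depletion and 161 lower by as much. Of 9359 genes, 383 were higher and 128 lower by 2-fold or more after transfection. Centred on ribosomal protein genes, all values moved up by 0.37 on the depletion array and by 0.23 on the transfection array, and these counts became 917 and 37, and 655 and 57. Different probes of the same gene differed with a pooled SD of 0.42 (depletion array, 566 genes) or 0.45 (transfection array, 471 genes), which is the repeat measurement these data offer. It compares probes within an array and holds no variation between arrays, dyes or cultures.

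PTGES, the inducible microsomal synthase of PGE2, was 6.18-fold lower in CD26-transfected MSTO-211H cells, with a log2 ratio of -2.63 from 1 probe. This was the lowest value of the 9359 named genes, and of all 17737 probes with a value, 2 that carry no symbol were lower. In CD26-depleted ACC-MESO1 cells the same probe read 0.27 and a second probe read -0.03, for a mean of 0.12 at the 61.7th percentile of all genes. The 2 probes thus lay on either side of 0 and differed by less than the pooled SD between probes. The next lowest named genes after CD26 was raised, C19orf33 (-2.50), AKR1B10 (-2.44) and DHRS3 (-2.42), named after their values were seen, were within the pooled SD between probes of PTGES, so its place as the lowest is by a small margin. After CD26 was lowered PTGES lay inside the bulk of genes.

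The second PTGES probe had no value on the transfection array, so the low value there was not repeated. Of 233 genes with several probes of which 1 had a value on that array, 3 were at least 2-fold lower, or 1.29%. PTGES is one of these 3. The share was 1.44% of 8655 genes with a single probe. None of the 471 genes with several values was at least 2-fold lower as a mean. The shares at least 2-fold higher were 7.30% of the 233, 4.14% of the 8655 and 1.70% of the 471. On that array 9 probes at or below -1 belonged to genes with other measured probes, and of those 15 pairings with another probe, 0 others were at or below -1 and 9 were below 0. No probe at or below -2 had such a partner. The dyes ran the same way on both arrays, and the probe that read -2.63 on one read 0.27 on the other. Whether the dye or the probe had a part in the low value was not tested.

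**Figure D1:**
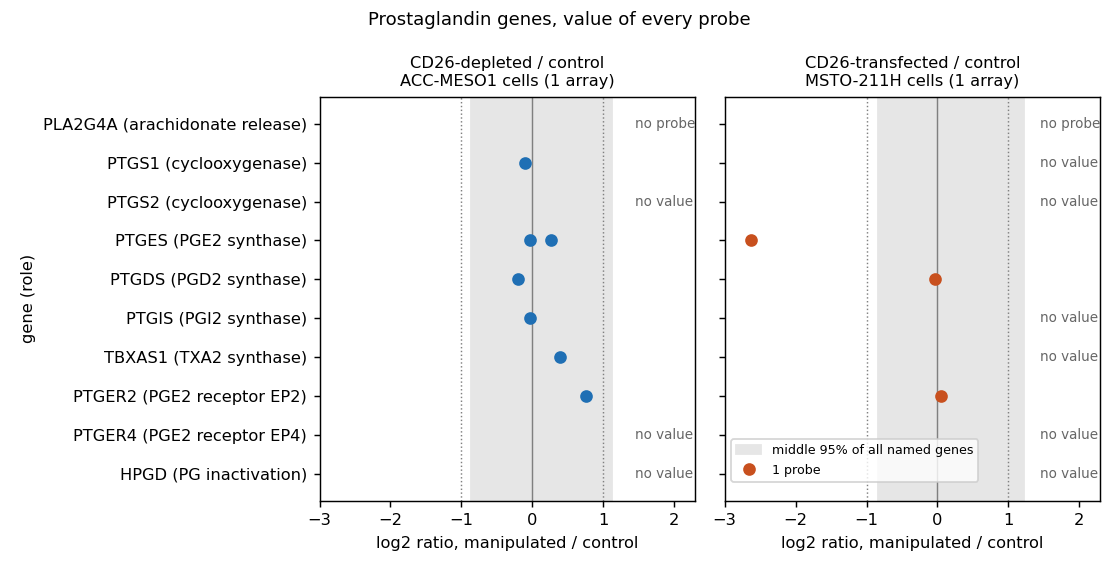
Log2 ratio of manipulated over control cells (horizontal axis) of every probe of the 10 prostaglandin genes (rows, in the order of the pathway), on the depletion array at left and the transfection array at right; each point is 1 probe, the grey band holds the middle 95% of named genes, and dotted lines mark 2-fold. PTGES at -2.63 is the point outside the band, and PLA2G4A, PTGS2, PTGER4 and HPGD have none.

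PTGER2, the EP2 receptor, which raises cAMP in response to PGE2, stood at a log2 ratio of 0.76 in depleted ACC-MESO1 cells, 1.69-fold higher than in control cells. It ranked 628th from the top of 10347 genes, and 9.82% of genes had a ratio as large in size. In transfected MSTO-211H cells its log2 ratio was 0.04, at the 54.2nd percentile. The depletion value, from 1 probe, was 1.81 times the pooled SD between probes and short of 2-fold. With the array centred on ribosomal protein genes it was 1.13 and one of the 917 genes then at least 2-fold higher.

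TBXAS1, the thromboxane synthase, was at a log2 ratio of 0.39 in depleted cells, at the 82.2nd percentile, and no value in transfected cells. PTGIS, the prostacyclin synthase, was at -0.03 in depleted cells and likewise had no value in transfected cells. PTGDS, the lipocalin-type PGD2 synthase, was at -0.20 in depleted cells and at -0.04 in transfected cells. All of these were smaller in size than the pooled SD between probes of their array.

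For the cyclooxygenases the arrays gave little. PTGS1 was at a log2 ratio of -0.10 in depleted cells, at the 37.1st percentile, and no value in transfected cells. PTGS2, the inducible form, had no value on either array. The receptor gene PTGER4 and HPGD, the enzyme that starts the breakdown of PGE2, had none either. Nothing can therefore be said of a change in PTGS2, PTGER4, HPGD or PLA2G4A.

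After depletion 0 of the 6 genes with a value were higher and 0 lower by 2-fold or more, where 3.31% and 1.56% of all genes were. Their median was 0.05, against 0.01 over all genes, with 3 above 0 and 3 below. From the highest value the order was PTGER2, TBXAS1, PTGES, PTGIS, PTGS1 and PTGDS, and each neighbouring pair differed by less than the pooled SD between probes, the widest gap being 0.37. Values within that SD of 0 were found for 5 of the 6, and for 71% of all genes.

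After transfection 1 of the 3 genes with a value, PTGES, was lower by 2-fold or more and 0 were higher, where 1.37% and 4.09% of all genes were. The choice of genes used the value of PTGES, so nothing is read from that count. PTGER2 and PTGDS differed by 0.09, within the pooled SD, while PTGES lay 2.59 below PTGDS.

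**Figure D2:**
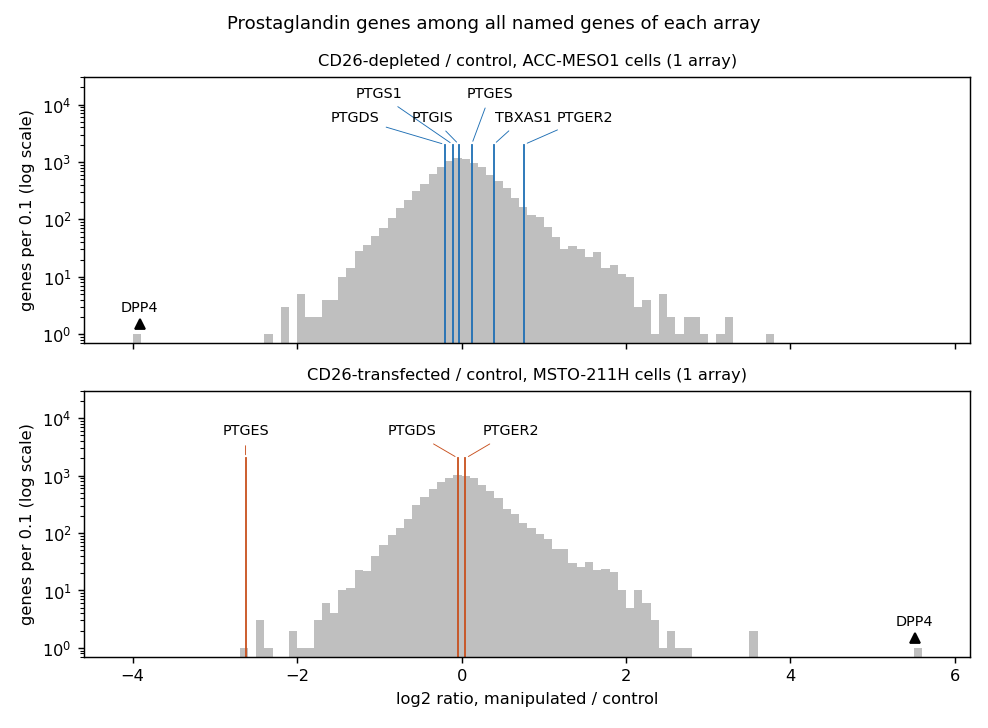
Number of named genes per 0.1 of log2 ratio (log scale) on the depletion array (top) and the transfection array (bottom), with prostaglandin genes as vertical lines and DPP4 as a triangle. The 6 genes measured after depletion lie between -0.20 and 0.76 inside the bulk, while after transfection PTGES stands at the lower end and PTGDS and PTGER2 near 0.

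Values were missing for these genes more often than for genes at large. Of the 9 genes with a probe, 6 (66.7%) carried a depletion value and 3 (33.3%) a transfection value. The shares were 83.1% and 75.2% of all named genes. With so few genes, a small number of them makes up each difference. The authors' rule for leaving a value empty is not known here. PTGS1, PTGIS and TBXAS1 had a value on the depletion array alone. Of the 1391 named genes of that kind, 9.99% were at least 2-fold higher there and 3.24% lower. The shares were 2.27% and 1.30% of the 8956 genes with a value on both arrays. No prostaglandin gene had a value on the transfection array alone. Of the 403 named genes that did, 28.5% were higher and 3.23% lower, against 2.99% and 1.28% of the 8956. Genes with empty values thus differed from the rest in their ratios too.

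The 3 genes with values on both arrays were set side by side, since CD26 was lowered in ACC-MESO1 cells and raised in MSTO-211H cells. PTGES had 0.12 and -2.63 and was the one with opposite signs, and the sign after depletion rests on a value within the pooled SD. PTGER2 had 0.76 and 0.04, and PTGDS had -0.20 and -0.04. Over all 8956 genes with both values, 46.9% had opposite signs. None of the 3 was past 2-fold on both arrays.

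The named genes closest to PTGES over both log2 ratios were the retinal reductase gene DHRS3 (-0.42 and -2.42), the chromatin remodeller gene SMARCA1 (-0.21 and -2.05) and NID2 (-0.26 and -2.02), which encodes a basement membrane protein. Their distances were 0.58, 0.66 and 0.72 log2 units, and no gene lay within 0.3. For PTGER2 the closest were BCAR3 (0.77 and 0.03), the cytokine gene CSF2 (0.74 and 0.06) and ZNF79 (0.79 and 0.05), at distances up to 0.03, with 361 genes within 0.3. The likeness is over 2 arrays and is a description.

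**Figure D3:**
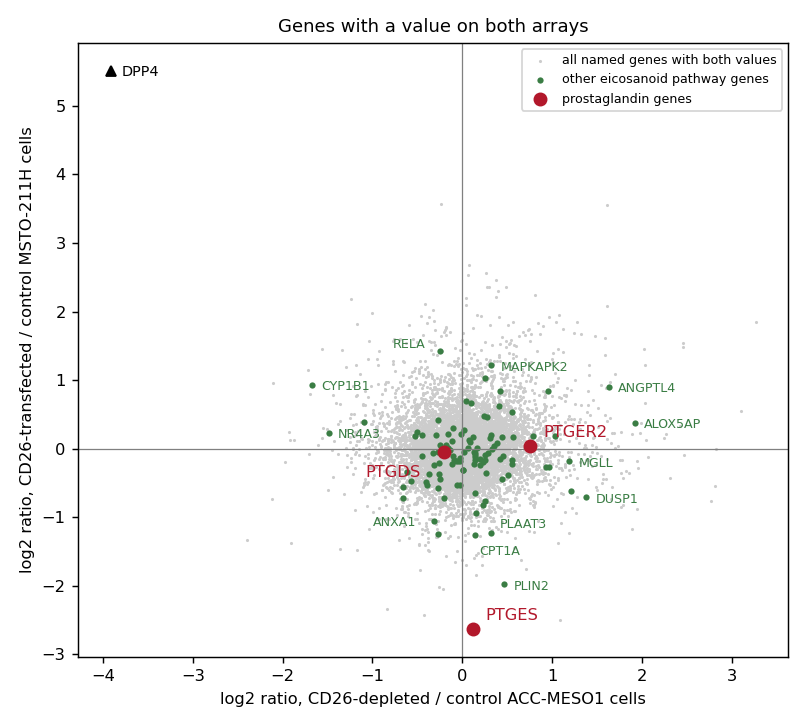
Log2 ratio in CD26-transfected over control MSTO-211H cells (vertical) against that in CD26-depleted over control ACC-MESO1 cells (horizontal) for genes with both values; red points are prostaglandin genes, green points other eicosanoid pathway genes, grey points all other genes and the triangle is DPP4. PTGES lies at 0.12 and -2.63 at the lower edge, and PLIN2 is the green point nearest to it.

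PTGES lies on chromosome 9, and its measured neighbours, chosen by position after the data were seen, were compared with it. The 10 measured genes on each side had log2 ratios in transfected cells from -0.98 (ASB6) to 1.11 (FIBCD1), with a median of 0.11 and none at least 2-fold lower. The adjacent measured genes, PRRX2 and TOR1B, were at 0.26 and 0.10. In depleted cells the 20 neighbours ran from -0.54 (PRRX2) to 0.83 (MIGA2), with a median of -0.16. The low PTGES value in transfected cells was thus not shared by the measured genes beside it.

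**Figure D4:**
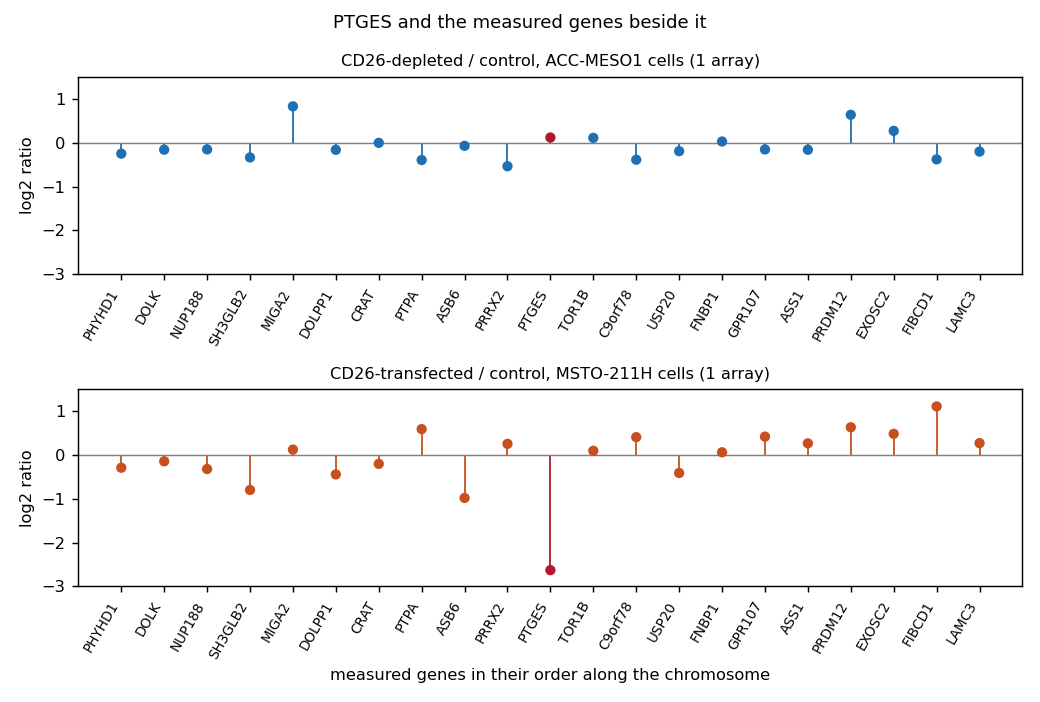
Log2 ratio of manipulated over control cells for PTGES (dark red) and the 10 measured genes on either side, in their order on the chromosome, on the depletion array (top) and the transfection array (bottom). After transfection PTGES is at -2.63, and its 20 neighbours lie between -0.98 and 1.11.

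Other genes of the eicosanoid pathway were taken from 13 lists with 172 distinct genes. The lists were chosen with earlier results of these data known, so nothing is read from their counts. After depletion 6 of 123 measured genes were higher and 3 lower by 2-fold or more, or 4.88% and 2.44%, beside 3.31% and 1.56% of all genes. Their median was 0.10, and 57.7% were above 0, beside 51.3% of all genes. After transfection 3 of 113 were higher and 7 lower by 2-fold or more, or 2.65% and 6.19%, beside 4.09% and 1.37% of all genes. Their median was -0.11, and 39.8% were above 0, beside 50.7% of all genes. Centred on ribosomal protein genes, the numbers higher and lower were 11 and 2 after depletion and 9 and 6 after transfection. That centring adds 0.37 and 0.23 to every value, so medians and members between 0 and those sizes below 0 turn positive.

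Genes that release arachidonate or its precursors had medians of 0.17 after depletion and -0.11 after transfection, with 16 measured on each array. MGLL, which cuts monoacylglycerols and can feed arachidonate into prostaglandin synthesis, was at 1.19 in depleted and -0.19 in transfected cells. PLAAT3, a phospholipase of adipocytes, was at 0.32 and -1.23. PLA2G4D was the lowest after depletion (-0.62) and the secreted phospholipase PLA2G3 the highest after transfection (0.77). Genes that return arachidonate to lipids had medians of 0.16 and -0.18 over 5 genes on each array. Among them MBOAT7, which places it in phosphatidylinositol, was at 0.25 and 1.03, MBOAT2 was the highest after depletion (0.96), ACSL4, an arachidonate-preferring ligase, was at -0.05 and -0.18, and ACSL5 was the lowest after transfection (-0.94).

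None of the other terminal synthases measured was past 2-fold, with 3 measured after depletion (median -0.11) and 4 after transfection (median 0.11). PTGES2, the second microsomal PGE2 synthase, was at 0.09 in depleted and 0.10 in transfected cells, in contrast to the -2.63 of PTGES in transfected cells. CBR1, which can turn PGE2 into PGF2 alpha, was at -0.27 and 0.42. AKR1C3, a PGF synthase, was at -0.84 in transfected cells and had no value in depleted cells.

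The other prostanoid receptors were all named on the array, and 0 of 7 measured after depletion and 0 of 5 after transfection were past 2-fold. PTGER3, the EP3 receptor, which lowers cAMP, was the lowest after depletion (-0.50) and the highest after transfection (0.24). PTGER1, the EP1 receptor, was at -0.06 and -0.53. The prostacyclin receptor gene PTGIR was the lowest after transfection (-0.57), and PTGDR2, a PGD2 receptor, the highest after depletion (0.42). The list medians were -0.25 and -0.24, below the all-gene medians of 0.01 on both arrays.

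Genes of prostanoid export and breakdown had medians of -0.31 over 4 genes after depletion and -0.42 over 6 after transfection. With only genes measured on both arrays the median after transfection was -0.05, and with symbols matched only as listed it was -0.78 after transfection and -0.14 after depletion. ABCC4, an exporter of PGE2, was at -0.65 and -0.72, and the carbonyl reductase gene CBR3 was the highest on each array (0.38 and 0.08). The aldo-keto reductase gene AKR1C2 was at -1.46 and AKR1C1 at -0.83 in transfected cells, with no value in depleted cells. AKR1C1, AKR1C2 and AKR1C3 are close paralogs, and their probes may share signal.

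PTGES belongs to the MAPEG family of membrane enzymes, whose other members had medians of 0.08 and 0.29 over 4 genes on each array. Its relative ALOX5AP, which presents arachidonate to the leukotriene-forming lipoxygenase, was at 1.92 in depleted cells, 3.79-fold higher than in control cells, and at 0.37 in transfected cells. MGST1 and MGST3, glutathione transferases of the family, were at 0.08 and 0.07 in depleted cells. After transfection MGST2 was at 0.81, MGST3 at 0.0036 and LTC4S, the leukotriene C4 synthase, at 0.20, so none of the 4 relatives measured there was below 0. LTC4S was the lowest relative after depletion (-0.29).

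In the wider lipoxygenase branch the median was 0.14 over 15 genes after depletion and -0.05 over 11 after transfection. Beside ALOX5AP, the epidermal lipoxygenase gene ALOX12B was past 2-fold, at -1.09 in depleted cells and 0.38 in transfected cells. The leukotriene B4 receptor gene LTB4R (0.48) and ALOX12 (-0.44) bounded the list after transfection. The cytochrome P450 branch had medians of 0.02 over 9 genes and -0.22 over 7. In it CYP1B1, which can oxidise arachidonate, was at -1.67 in depleted and 0.93 in transfected cells, the lowest and the highest of that list. CYP2C19 was the highest after depletion (0.50) and CYP4F8 the lowest after transfection (-0.53).

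**Figure D5:**
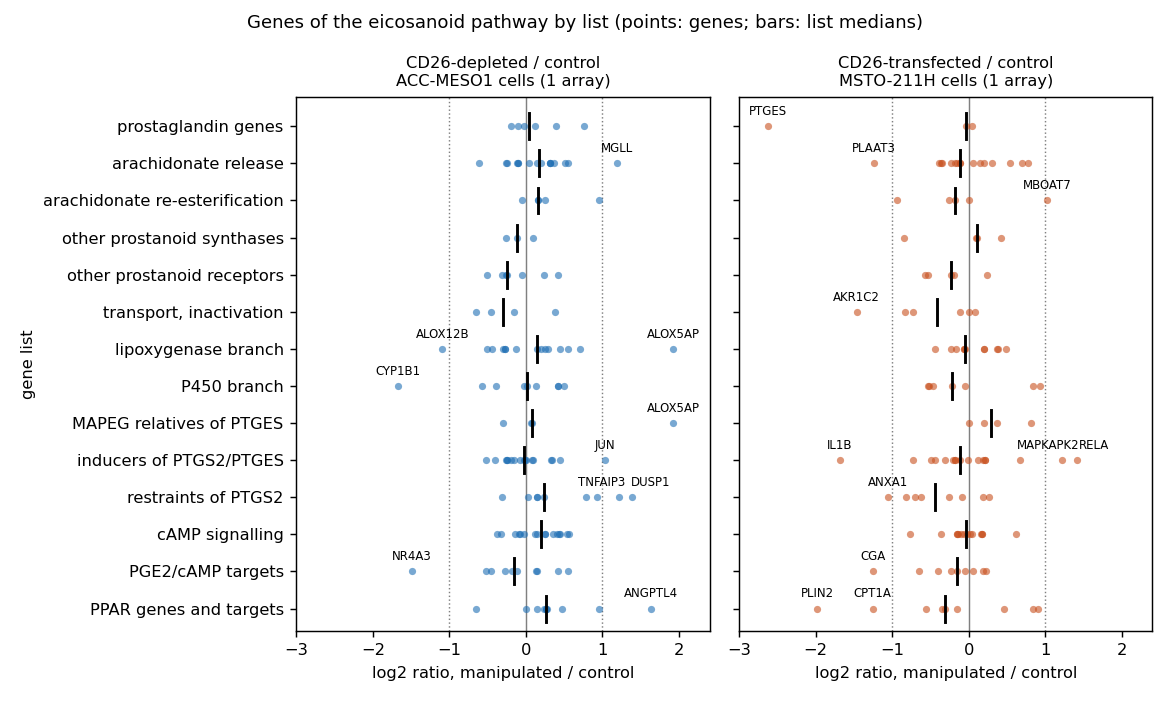
Log2 ratio of manipulated over control cells (horizontal axis) for the prostaglandin genes and 13 lists of related genes (rows), on the depletion array at left and the transfection array at right; points are genes, black bars are list medians, dotted lines mark 2-fold and names are given past it. Values are as deposited; centring on ribosomal protein genes would move all points right by 0.37 and 0.23.

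Genes known to induce PTGS2 or PTGES had medians of -0.03 after depletion and -0.11 after transfection, with 17 measured on each array. IL1B, a cytokine that induces both enzymes, was at -1.68 in transfected cells, from 1 probe, and had no value in depleted cells. Whether IL1B had a part in the PTGES value was not tested. RELA, the p65 subunit of NF-kB, was at 1.42 and MAPKAPK2, a kinase that stabilises PTGS2 mRNA, at 1.22 in transfected cells, and they were at -0.25 and 0.32 in depleted cells. EGR1 was at 0.66 in transfected and 0.10 in depleted cells, and SP1, which binds GC boxes, at 0.22 and -0.16. JUN was at 1.03 in depleted and 0.19 in transfected cells, and CEBPD was the lowest after depletion (-0.52). In transfected cells the members of this list past 2-fold thus lay on both sides of 0.

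Genes known to restrain PTGS2 or arachidonate release had a median of 0.23 over 9 genes after depletion, with 8 above 0 (0.51 with only genes measured on both arrays), and of -0.44 over 8 genes after transfection, with 2 above 0. DUSP1, a phosphatase of p38 kinase, was at 1.38 in depleted and -0.71 in transfected cells. TNFAIP3, an inhibitor of NF-kB signalling, was at 1.22 and -0.62. ANXA1, the glucocorticoid-induced inhibitor of phospholipases, was at -0.31 and -1.05, the lowest of the list on each array. The glucocorticoid receptor gene NR3C1 was the highest after transfection (0.27).

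Below the EP2 receptor, cAMP signalling genes had medians of 0.20 over 16 genes after depletion and -0.04 over 14 after transfection, and none of this list was past 2-fold. The listed adenylate cyclase genes ADCY7 (0.56 and 0.18), ADCY9 (0.44 and 0.17), ADCY3 (0.35 and 0.04) and ADCY6 (0.25 and -0.76) were above 0 in depleted cells, and ADCY6 was the lowest of the list in transfected cells. Other measured adenylate cyclase genes, outside the list and named after their values were seen, were below 0 in depleted cells (ADCY2 at -0.16, ADCY4 at -0.50, ADCY5 at -0.25), and ADCY4 (1.55) and ADCY8 (1.35) were at least 2-fold higher in transfected cells. RAPGEF4 was the lowest after depletion (-0.37), and the phosphodiesterase gene PDE3A the highest after transfection (0.62). Genes known to respond to PGE2 or cAMP had medians of -0.15 on each array, over 10 and 9 genes, and with only genes measured on both arrays the median after depletion was -0.03. Among them the nuclear receptor gene NR4A3 was at -1.49 in depleted and 0.23 in transfected cells, and CGA, a hormone subunit gene with cAMP response elements, at -0.27 and -1.25. BDNF was the highest after depletion (0.55).

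Nuclear receptors that bind eicosanoids and their targets had a median of 0.26 over 10 genes after depletion, with 9 above 0, and of -0.31 over 9 genes after transfection, with 3 above 0. PLIN2, a lipid droplet protein and PPAR target, was at 0.47 in depleted and -1.98 in transfected cells. CPT1A, the mitochondrial carnitine acyltransferase, was at 0.14 and -1.26, and ANGPTL4, a lipase inhibitor, was the highest on each array at 1.63 and 0.90. In transfected cells PLIN2 and CPT1A thus lay below 0 and ANGPTL4 above it. PPARG, a receptor that prostaglandin J2 derivatives can activate, was at 0.27 and -0.35, and RXRA was the lowest after depletion (-0.66).

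Markers of mesothelial cells and of other cell types rich in prostanoid enzymes were read beside these values. Mesothelial markers had medians of 0.06 over 11 genes after depletion and -0.01 over 10 after transfection. In transfected cells mesothelin, MSLN, was at -1.31 and KRT18 at -1.16, and UPK3B was the highest (0.66), and in depleted cells ITLN1 was at 1.38 and WT1 the lowest (-0.37). Macrophage markers, of a cell type that makes thromboxane, had a median of 0.40 after depletion over the 4 of 8 listed with a value. All 4 were above 0, with CSF1R the highest (0.93) and AIF1 the lowest (0.13). After transfection their median was -0.30 over 3, from CD68 (-0.89) to CSF1R (0.46). Fibroblast markers had medians of 0.01 over 7 genes and -0.38 over 5, with MFAP5 at 1.96 and FBLN1 the lowest (-0.14) in depleted cells and COL14A1 (-0.77) and THY1 (0.75) the extremes in transfected cells. Medians were -0.11 and 0.31 for mast cell markers, over 4 genes each (KIT -0.61 to TPSB2 0.16, and MS4A2 0.15 to HDC 0.57), -0.06 and -0.13 for platelet markers, over 3 each (ITGA2B -0.17 to GP9 0.08, and PPBP -0.73 to GP9 0.34), and -0.07 and -0.42 for endothelial markers, over 6 and 5 (VWF -0.22 to CLDN5 0.29, and ERG -0.51 to CLDN5 0.57). None of the mast cell, platelet, endothelial or macrophage markers was past 2-fold. Both samples were established cell lines, and a marker ratio does not show that a cell type was present. The part of any cell type in the prostaglandin gene values was not tested.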

How the data were processed

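Per the labels' protocols, TRIZOL-extracted total RNA was amplified by an amino allyl method before dye coupling. Per the labels' descriptions, the authors deposited a normalized log2 ratio, manipulated over control, for each probe. The median over probes was 0 on each array, so the values were already centred. The sources used here do not give the background correction, the normalization method or the scanner.

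Of 24267 probes, 13395 had 1 gene symbol, 0 had several and 10872 had none. Symbols were updated through RefSeq (GRCh38.p14): 10076 distinct symbols were current, 2285 had a newer form and 113 with several candidates stayed unchanged. The mean was taken over the probes of each gene (Python 3.11.15, pandas 2.3.3). The threshold for a count was a log2 ratio of 1 in size, or 2-fold. A percentile is the share of genes with a lower value. The averaging, counts and ranks were tested on simulated data with known changes.

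The members and the 19 gene lists, 13 of the pathway and 6 of cell type markers, were chosen with earlier results of these data known. Genes named are the members, DPP4, list genes past 2-fold and the extremes of each list, a few list genes with a direct role in PGE2 synthesis or signalling (picked with values in view), the 3 genes nearest to PTGES and to PTGER2, and the measured neighbours of PTGES. Alternatives were other centrings, a common spread, other probe rules, symbols as listed, genes on both arrays, and thresholds of 0.5 and 1.5.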

Additional observations from a re-analysis of the deposited data

How the results depend on the processing

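The log2 ratio of PTGES in transfected cells lay between -2.67 and -2.40 over 7 alternatives. It came from 1 probe, so only a shift or rescaling of the whole array could change it. The narrow range therefore does not stand in for a repeat of that probe. In depleted cells PTGES lay between 0.08 and 0.50. Across the 9 member values, 60 alternative values moved by less than the pooled SD between probes and 0 by more. This was largely fixed in advance. Measured members other than PTGES had 1 probe, and the ribosomal centring adds 0.37 or 0.23, less than that SD of 0.42 or 0.45. Under that centring PTGDS, PTGS1 and PTGIS after depletion turned from below 0 to 0.18, 0.27 and 0.34, and PTGDS after transfection to 0.19. The 266 alternative list medians also moved by less than that SD, but several moved by a large part of their own size. With only genes measured on both arrays, the median of the export and breakdown genes after transfection was -0.05 instead of -0.42, and medians after depletion were 0.51 instead of 0.23 for the restraints of PTGS2, -0.03 instead of -0.15 for the PGE2 or cAMP targets, -0.03 instead of 0.02 for the P450 branch and 0.02 instead of -0.11 for the mast cell markers. With symbols matched only as listed, the export and breakdown median was -0.78 after transfection and -0.14 instead of -0.31 after depletion. With the array centred on ribosomal protein genes, the prostaglandin genes at least 2-fold higher after depletion became 1 (PTGER2) instead of 0, and the other pathway genes at least 2-fold higher became 11 instead of 6 after depletion and 9 instead of 3 after transfection. At a log2 threshold of 0.5 the prostaglandin genes counted as higher after depletion were 1, and the other pathway genes numbered 18 higher and 11 lower after depletion and 13 higher and 22 lower after transfection. At a threshold of 1.5 they numbered 2 higher and 1 lower after depletion and 0 higher and 2 lower after transfection. These changes follow from the shift and the thresholds themselves. No paired analysis was possible because each comparison was 1 array, and no replicate could be left out. Signal over background was not used here, so dim probes could not be set apart.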
